A study of Mus musculus with 30 samples.

Results

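Developmental transcription factors outside the Hox clusters are described here through 36 genes of the Pax, Gata, Lhx, Tbx, Nkx2, Sox and Foxa families. They were chosen by name, with earlier results of these data known. Each gene was measured over its RefSeq body on GRCm38 with 2000 bp added on either side, called its window below. A CpG counted as measured when both strands together had 10 or more reads in all 30 libraries. The windows held 2323 measured CpGs of 416876 in the genome, and 35 of the 36 genes had 3 or more. Pax8, a thyroid and kidney regulator, had only CpGs at 24472592 and 24472758 on chromosome 2. Those CpGs averaged 1.87% and 1.78% in sperm of cadmium-treated animals and 4.997% and 2.19% in that of vehicle animals, and Pax8 is left out of the gene counts that follow.

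The DNA came from sperm of the cauda epididymis of 30 C57BL/6J males bought from a supplier, housed singly and fed the same diet. Cadmium mice (n = 15) drank reverse-osmosis (RO) water with 0.9 ppm cadmium from cadmium chloride, at an average dose of 0.68 mg per kg of body weight, and vehicle mice (n = 15) drank RO water alone. All were 7 weeks old at the start, and the labels put sampling at 9 weeks post treatment, taken here as 9 weeks after treatment began, which the labels do not settle. Reduced representation bisulfite sequencing (RRBS) reads CpG-rich fragments of the genome, in which bisulfite tells methylated from unmethylated cytosines. The study asked whether drinking cadmium alters sperm methylation.

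The proteins made from these genes bind DNA and set the fate of embryonic tissues, many of them at low doses and in overlapping domains. In the mouse genome such genes lie in unusually long CpG islands, often chains of islands, which carry Polycomb marks in embryonic stem cells and in sperm. The term DNA methylation valley is used for such long unmethylated blocks. Mature sperm methylates most CpGs outside islands.

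Sperm libraries had a coverage of 53591172 to 94090975 summed over cytosines. Read counts summed over the CpGs of a window came to 1003 to 15639.5 (medians over mice). A read that crosses several CpGs counts at each of them. Control sequences in the libraries read 97.9% to 98.7% where methylated and 0.0740% to 0.666% where unmethylated. The share of coverage on the mitochondrial genome was 0.0586% ± 0.0252 in cadmium libraries and 0.0584% ± 0.0342 in vehicle libraries (SD, n = 15 each), with a range of 0.0127% to 0.119%. As a marker of cell identity, 8 gene ends near germline differentially methylated regions (DMRs) of maternal type, which sperm lacks methylation at, were used. They were kept for reading under 20% on average, so their low mean follows from the choice and is no check of identity. They averaged 12.4% ± 4.64 in cadmium mice and 10.4% ± 7.31 in vehicle mice, with single mice between 1.91% and 26.8%. The measured ends left out as too high were those of Mest (31.0% in cadmium mice and 26.0% in vehicle mice) and Plagl1 (21.5% and 22.3%). The end of H19, near a region methylated in sperm, averaged 92.0% ± 6.89 in cadmium mice and 93.3% ± 6.38 in vehicle mice. The ends of Meg3 (27.97% and 28.3%) and Rasgrf1 (1.38% and 1.24%), meant as markers of the same kind, did not read high, and whether their windows reach the methylated regions was not tested. The maternal level stood above 0 in every library and differed widely between mice.

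RefSeq promoter sequences (GRCm38, 250 bases before to 50 after a start) were on hand for 26 of the 36 genes, with 37 starts. These promoters held a median of 17 CG dinucleotides, a letter pair that reads the same on both strands, with a range of 4 to 37. The median was 7 over 32619 promoters of all genes. At least 15 CG stood in 67.6% of the promoters of these genes and in 34.9% of all promoters. The sequences below show how such a promoter looks and which of its CpGs RRBS reads. Each gives the 250 bases before the start, 5′ to 3′ along the gene, with the measured CpGs in capitals. Pax2 is needed for kidney, ear and optic nerve, and the stretch shown is chr19:44756656-44756905 on the plus strand. Pax6, the eye and forebrain regulator, is shown for a start with bases chr2:105668646-105668895 on the plus strand. Tbx1, which patterns the pharyngeal arches, is shown for its proximal start with bases chr16:18588900-18589149 on the minus strand.
Pax2: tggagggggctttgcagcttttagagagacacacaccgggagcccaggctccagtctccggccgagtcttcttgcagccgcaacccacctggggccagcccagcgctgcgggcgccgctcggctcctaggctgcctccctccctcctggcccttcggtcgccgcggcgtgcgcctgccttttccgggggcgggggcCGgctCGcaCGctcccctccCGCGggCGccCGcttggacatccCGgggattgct
Pax6: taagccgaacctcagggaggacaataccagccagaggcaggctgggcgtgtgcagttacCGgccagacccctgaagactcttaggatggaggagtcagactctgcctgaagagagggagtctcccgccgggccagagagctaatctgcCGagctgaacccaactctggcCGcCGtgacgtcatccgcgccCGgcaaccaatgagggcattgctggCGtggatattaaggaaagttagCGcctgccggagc
Tbx1: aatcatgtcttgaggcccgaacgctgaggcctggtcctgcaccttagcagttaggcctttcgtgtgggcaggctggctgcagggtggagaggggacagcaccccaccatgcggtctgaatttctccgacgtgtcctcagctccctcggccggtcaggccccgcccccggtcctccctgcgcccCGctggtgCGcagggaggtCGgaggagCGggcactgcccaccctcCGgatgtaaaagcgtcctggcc

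The 8 measured CpGs of the Pax2 promoter averaged 0.773% ± 1.45 methylation in cadmium mice and 0.580% ± 0.847 in vehicle mice (SD, n = 15 each). The 7 CpGs of the Pax6 promoter averaged 1.60% ± 1.43 in cadmium mice and 0.842% ± 1.40 in vehicle mice. Of these 4 means, that of Pax2 in vehicle mice lay within the range of the unmethylated control and the others above it. The Tbx1 promoter was higher, and its 5 CpGs lay 21 to 66 bases before the start. In cadmium mice it averaged 14.7% ± 8.90 (lowest 0, median 16.7%, highest 33.8%) and in vehicle mice 21.7% ± 14.9 (lowest 5.23%, median 16.2%, highest 54.2%), so the groups overlapped over most of their range. Of the 18 promoters of these genes with a measured CpG, all 18 were under 20% as means of the 30 mice, and 16 (88.9%) were under 5%. Over all genes 94.1% and 92.1% of 9161 measured promoters were under these levels. The exceptions at 5% were this Tbx1 promoter and that of Pax7, a muscle stem cell factor, with 9.05% in cadmium mice and 9.12% in vehicle mice.

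Sperm DNA was unmethylated over most of what was measured in these genes. Of the 2323 CpGs, 2116 (91.1%) averaged under 20% methylation, 125 (5.38%) were between 20% and 80%, and 82 (3.53%) were above 80%. Over all measured CpGs of the genome the shares were 65.1%, 12.9% and 22.0%. The median window level, as methylated reads per 100 reads, was 4.62% in cadmium mice and 4.73% in vehicle mice, against 15.05% and 14.5% for the 14822 measured protein-coding genes. It was lower still in the other developmental transcription factors, with 2.40% in cadmium mice and 2.57% in vehicle mice, and in housekeeping genes, with 2.94% and 3.27%, while Polycomb subunits had 5.37% and 4.14%. Levels under 5% were found in 18 of 35 genes (51.4%) and levels of 20% or more in 4. The share under 5% was 68.3% in the other developmental factors, 59.3% in housekeeping genes and 53.3% in Polycomb subunits. It was 31.9% in all protein-coding genes, of which 6344 of 14822 had 20% or more. CpGs above 80% lay in 16 genes, and in 10 genes no measured CpG reached 20%.

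**Figure D1:**
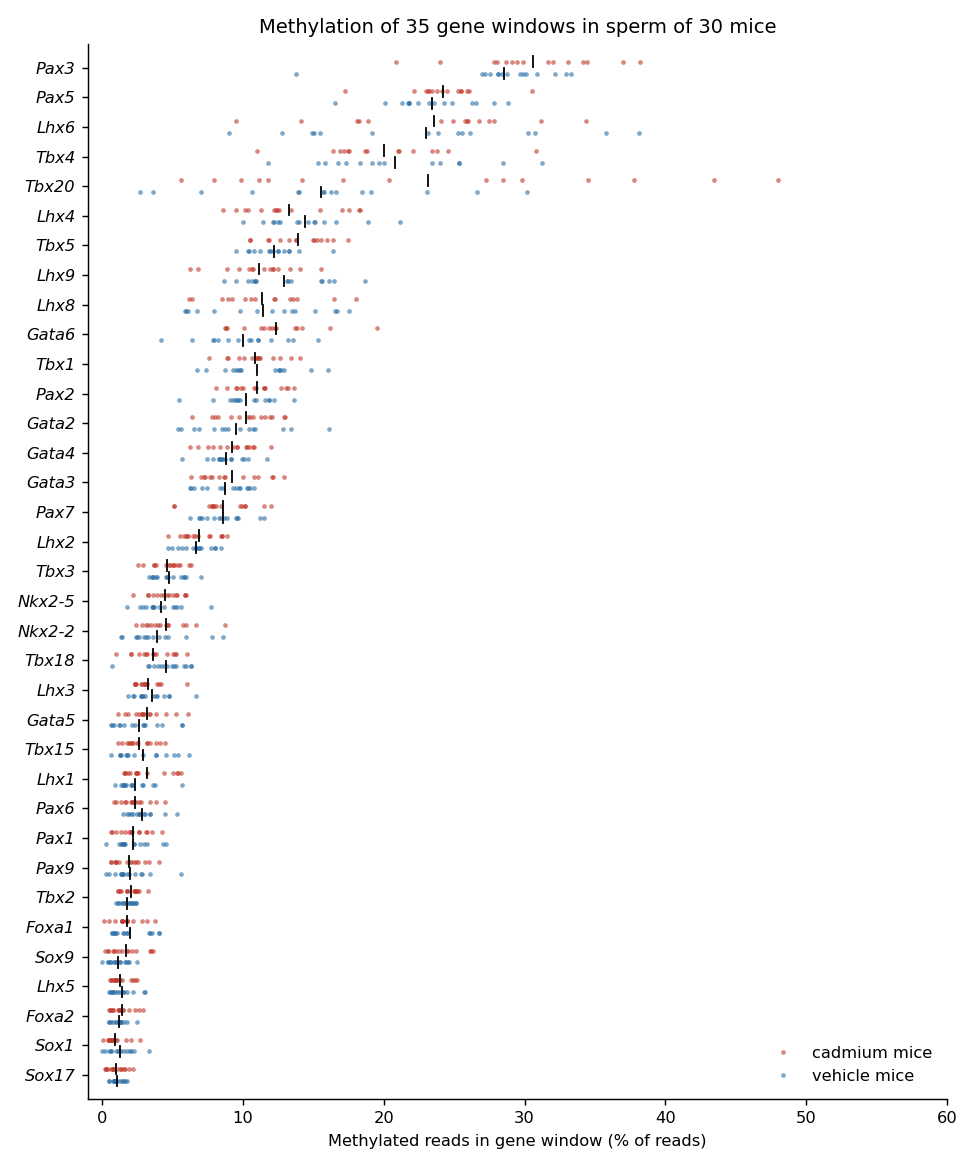
Each row is a gene, sorted by its mean, and each point is the methylation of its window in the sperm of a mouse (percent of reads, x axis), with cadmium mice above vehicle mice and a bar at each group's mean (n = 15 each). The ranges of the groups overlap in all 35 rows, and Tbx20 and Lhx6 spread most.

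The Pax family had the widest span of levels, with 1.94% for Pax9 at the low end and 29.5% for Pax3 at the high end (means of 30 mice). Pax3, which specifies neural crest and muscle progenitors, averaged 30.6% ± 4.58 in cadmium mice (lowest 20.9%, median 29.9%, highest 38.2%) and 28.5% ± 4.56 in vehicle mice (lowest 13.8%, median 28.7%, highest 33.3%). Of its 48 CpGs, 10 were above 80%. Pax5, the B cell identity factor, averaged 24.2% ± 2.78 in cadmium mice (17.3%, 24.1% and 30.6%) and 23.4% ± 3.18 in vehicle mice (16.5%, 23.2% and 28.8%), given as lowest, median and highest. It held 20 CpGs above 80% of 116. Pax1 and Pax9, which build the sclerotome, had no CpG at 20% or more. Over the 7 measured Pax genes, 38 of 577 CpGs were above 80%.

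The LIM homeodomain genes, which direct neuronal and organ identity, included one of the highest and one of the lowest windows. Lhx6, a factor of cortical interneurons, averaged 23.5% ± 6.56 in cadmium mice (lowest 9.53%, median 25.8%, highest 34.4%) and 23.0% ± 8.56 in vehicle mice (lowest 9.03%, median 23.9%, highest 38.1%). Lhx5, a forebrain gene, averaged 1.29% ± 0.653 in cadmium mice (0.560%, 1.01% and 2.50%) and 1.39% ± 0.815 in vehicle mice (0.501%, 1.21% and 3.02%). All 74 of its CpGs were under 20%. In Lhx4, a pituitary gene, 10 of 73 CpGs were above 80%.

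T-box genes pattern limbs, heart and face. Tbx4, the hindlimb factor, averaged 20.05% ± 4.60 in cadmium mice (lowest 11.03%, median 18.8%, highest 30.8%) and 20.8% ± 5.35 in vehicle mice (lowest 11.8%, median 19.7%, highest 31.2%). Tbx20, a heart factor, had only 10 measured CpGs and the largest SD between mice of all 35 genes, 11.5 points. Its window averaged 23.2% ± 13.6 in cadmium mice (5.59%, 20.3% and 48.0%) and 15.6% ± 7.68 in vehicle mice (2.71%, 15.7% and 30.2%), and the groups overlapped. A single CpG of Tbx20, at 24744779 on chromosome 9, averaged 87.1%, while the other 9 were under 20%. That CpG supplied 3.76% to 45.3% of the window's reads in cadmium mice and 2.56% to 30.2% in vehicle mice. With every CpG given the same weight, Tbx20 averaged 11.1% ± 1.55 in cadmium mice and 10.3% ± 3.18 in vehicle mice. The SD between mice was then 2.49 points and the difference between groups 0.727 points. The spread of the Tbx20 window was thus smaller by several times when the number of reads per CpG did not enter. Equal weights lowered the SD between mice of Lhx6 to 3.26 points, against 7.498 by reads, and of Pax3 to 1.66, against 4.61.

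The Sox, Foxa and Nkx2 genes were lowest as groups, and no measured CpG in Sox1, Sox9, Sox17, Foxa1 or Foxa2 reached 20%. Sox17, an endoderm factor, averaged 1.01% ± 0.628 in cadmium mice (lowest 0.178%, median 0.797%, highest 2.23%) and 1.07% ± 0.389 in vehicle mice (lowest 0.461%, median 0.975%, highest 1.75%). Sox1, of the early neural plate, averaged 0.924% ± 0.706 in cadmium mice and 1.30% ± 0.886 in vehicle mice. Foxa2, which opens chromatin in endoderm, averaged 1.39% ± 0.750 in cadmium mice and 1.18% ± 0.524 in vehicle mice. The Gata genes, zinc finger factors of blood, heart and gut, had window levels of 2.89% to 11.2%, and 13 of their 399 CpGs were above 80%.

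Where the strand and start were known, methylation stayed low far into these genes. Within 500 bp of a start, CpGs of these genes averaged 1.39% ± 0.373 in cadmium mice and 1.48% ± 0.438 in vehicle mice, while those of all protein-coding genes averaged 1.37% in cadmium mice and 1.36% in vehicle mice. Between 2000 and 5000 bp after the start, 284 CpGs in 22 of these genes averaged 8.33% ± 0.780 in cadmium mice and 8.20% ± 0.576 in vehicle mice, against 36.2% and 36.1% over all protein-coding genes. Between 5000 and 10000 bp, measured in 15 of these genes, the levels were 10.6% ± 1.06 in cadmium mice and 10.3% ± 0.973 in vehicle mice, against 45.2% and 44.9%. Between 500 and 2000 bp they were 2.31% in cadmium mice and 2.20% in vehicle mice, against 6.24% and 6.18%. No test was made between the gene sets, and the SD over mice does not show how the genes of a set differ. At 10000 bp or more, 148 CpGs in 11 genes averaged 44.1% ± 1.46 in cadmium mice and 43.5% ± 2.15 in vehicle mice, against 63.5% and 63.4%. A further gap lay upstream, where CpGs of these genes 500 to 2000 bp before a start averaged 2.54% in cadmium mice and 2.56% in vehicle mice, against 9.33% and 9.22%.

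**Figure D2:**
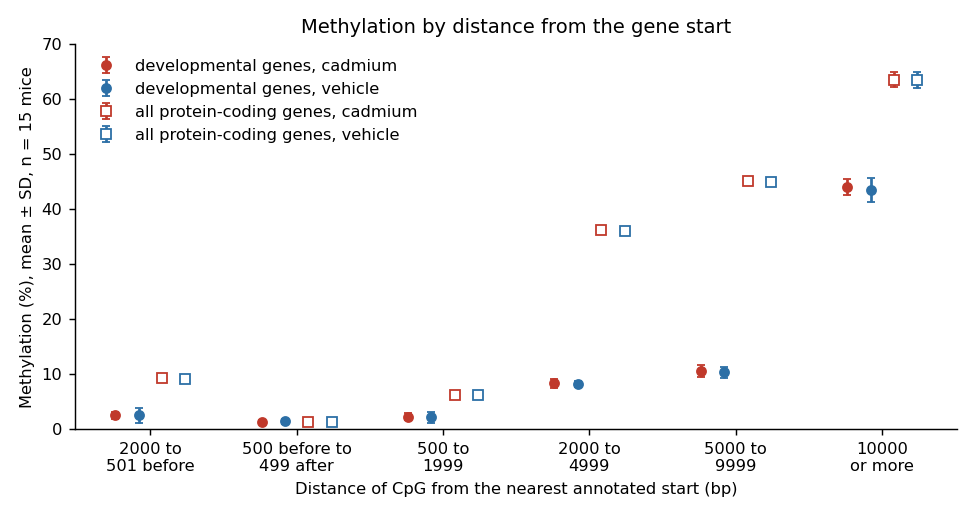
Mean methylation (percent, y axis, with SD over 15 mice) of measured CpGs by distance from the nearest annotated start (x axis, bp), for the developmental genes with a known start (filled) and all protein-coding genes (open), in cadmium (red) and vehicle (blue) mice. The means of the gene sets are close within 500 bp of the start and apart at every other distance, with 8.33% in the developmental genes and 36.2% in all genes between 2000 and 5000 bp in cadmium mice.

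An unmethylated stretch was a run of 3 or more consecutive measured CpGs, each averaging under 20% over the 30 mice, with gaps of at most 1000 bp. CpGs that RRBS skipped between them were not read, so a width is the span over which every measured CpG averaged under 20%. The windows of these genes crossed 108 stretches of 15059 in the genome. The widest stretch per gene had a median of 1898 bp (quartiles 1317 and 2639 bp), and it reached 1000 bp in 33 of 35 genes (94.3%) and 2000 bp in 16 (45.7%). For 101 other developmental transcription factors the median was 1764 bp, with 73.3% at 1000 bp and 38.6% at 2000 bp. For 15 Polycomb subunits it was 1172 bp, for 27 housekeeping genes 545 bp, and for all protein-coding genes 463 bp with 3.17% at 2000 bp. The sets also differed in the median number of measured CpGs per window. It was 63 in these genes, 45 in the other developmental factors and 29 in Polycomb subunits. In housekeeping genes it was 17 and in all protein-coding genes 19. A width depends on which CpGs were measured, and the part of these counts in the differences was not tested. No test was made of the differences in width.

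The widest stretch was in Gata3, the T helper cell and kidney duct regulator, at chr2:9876605-9885480, with 8876 bp and 107 CpGs averaging 1.88%. Lhx1, of the head organizer and kidney, followed with 4390 bp at chr11:84521937-84526326, and Lhx5 with 4110 bp at chr5:120434518-120438627. Nkx2-2, of the ventral neural tube and the pancreas, had 3034 bp at chr2:147183040-147186073. These widths rest on the spacing allowed between CpGs: with at most 500 bp they were 1225 bp in Gata3, 525 bp in Lhx1, 3444 bp in Lhx5 and 826 bp in Nkx2-2, and with a minimum of 20 reads Gata3 had 1877 bp and Lhx1 1865 bp. The narrowest were Pax3 with 860 bp at chr1:78196350-78197209, Gata5, a heart and gut gene, with 962 bp, Lhx3, of pituitary and motor neurons, with 1015 bp, and Tbx4 with 1037 bp. Among the other developmental factors Lbx1 and Irx5 reached 6202 and 4509 bp, among housekeeping genes Actb and Ywhaz 1751 and 1690 bp, and among Polycomb subunits Pcgf2 reached 2276 bp.

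**Figure D3:**
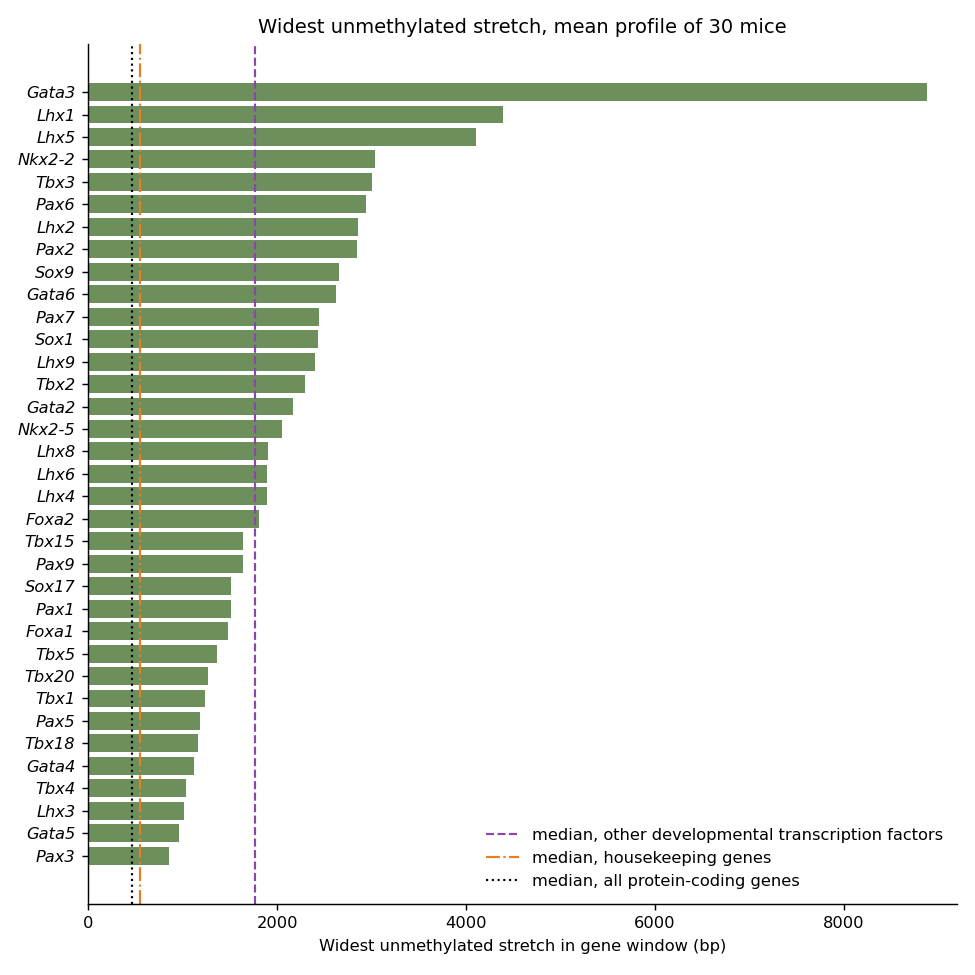
Bars give the width in bp of the widest unmethylated stretch in each gene's window, from the mean profile of 30 mice, and vertical lines give medians of comparison sets (dashed for 101 other developmental transcription factors, dash-dotted for 27 housekeeping genes, dotted for all protein-coding genes). Gata3 has 8876 bp and Pax3 860 bp, and every bar exceeds the housekeeping median of 545 bp.

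Few of these stretches had a measured edge. Of 216 stretch ends, 18 (8.33%) were followed within 1000 bp by a CpG of 20% or more, at a median of 208 bp, against 2176 of 30118 ends (7.22%) and 274 bp over all stretches. At those ends CpGs 51 to 250 bp inside the stretch averaged 1.99% ± 1.04 in cadmium mice and 1.68% ± 0.993 in vehicle mice. The last 50 bp inside averaged 6.00% ± 2.04 in cadmium mice and 5.80% ± 2.57 in vehicle mice. Outside, the 12 CpGs within 50 bp averaged 18.8% ± 6.50 in cadmium mice and 20.3% ± 7.47 in vehicle mice, and the 36 CpGs beyond 250 bp 32.6% ± 3.54 and 31.3% ± 3.62. The change at an end is fixed by how stretches were defined. What the definition did not use is how far above 20% the first CpG beyond an end lay. Its median was 28.5% in these genes and 27.7% over all stretches, and it was above 80% at 0 of 18 ends in these genes and at 132 of 2176 over all stretches.

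Cadmium and vehicle mice were compared by a quasi-binomial logistic model of methylated and unmethylated reads, with Benjamini-Hochberg adjustment over the genome and calls at an adjusted p under 0.05. No CpG of the 2323 in these genes was called, where 7 of 416876 CpGs (0.00168%) were called in the genome. At an unadjusted p under 0.05 there were 298 in these genes (12.8%) and 42794 in the genome (10.3%), and limma on percent methylation also called 0. The smallest p was at 78196358 on chromosome 1, near an end of the main Pax3 stretch, with 12.6% ± 17.2 in cadmium mice (lowest and median 0, highest 43.4%) and 0 in all vehicle mice. Methylated reads appeared there in 6 of 15 cadmium mice and in 0 of 15 vehicle mice, and the adjusted p was 0.143. That CpG had a median of 49 reads and fell out with a minimum of 20 reads. The CpGs named next, in Pax5 and Lhx1, stayed in. At 44712068 in Pax5, 5 cadmium mice and 0 vehicle mice had methylated reads, with means of 1.82% ± 2.84 and 0 (adjusted p = 0.187). At 84525374 in Lhx1 the order was opposite, with 0 cadmium mice and 4 vehicle mice and means of 0 and 1.16% ± 2.09 (adjusted p = 0.195). In each case most mice of both groups had no methylated read at the site. A group without methylated reads adds nothing to the dispersion of the quasi-binomial model. Limma on percent methylation gave each of these CpGs an adjusted p of 0.838.

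Gene windows gave no call either, with 0 of 35 for these genes and 0% of 21453 genes by the quasi-binomial model, and limma called 0 of them. At an unadjusted p under 0.05 there were 2 of 35 and 983 in the genome. The mean was higher in cadmium mice in 19 genes and lower in 16, and 29 of the 35 differences were under 1 point. Tbx5, of forelimb and heart, had 13.9% ± 2.13 in cadmium mice (lowest 10.5%, median 13.8%, highest 17.5%) and 12.2% ± 1.71 in vehicle mice (lowest 9.49%, median 12.1%, highest 16.4%). The 95% interval of the difference, 1.72 points, ran over 0.276 to 3.16 (uncorrected), and the adjusted p was 0.965. Gata6, of heart and endoderm, had 12.4% ± 2.91 in cadmium mice (8.74%, 12.1% and 19.5%) and 10.0% ± 2.91 in vehicle mice (4.20%, 10.4% and 15.4%), with p = 0.0394 before and 1.00 after adjustment. The equally weighted mean of Gata6 was 8.59% in cadmium mice and 8.48% in vehicle mice. When 10 mice of each group were enough, the difference in Gata6 was 1.27 points, against 2.33. Tbx20 followed with an unadjusted p of 0.0595 by the same model, and its difference of 7.58 points was 0.313 with a minimum of 20 reads. The ranges of the groups, from lowest to highest mouse, overlapped in all 35 windows, and no share of such overlaps over the genome is given for comparison.

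Stretches of these genes also gave 0 calls by the quasi-binomial model among 108 (0% of 15059 in the genome), with 3 at an unadjusted p under 0.05 against 895 in the genome. A 44 bp stretch of Lhx9, a gonad and limb gene, at chr1:138831484-138831527 averaged 5.01% ± 3.86 in cadmium mice (lowest 0, median 4.48%, highest 11.8%) and 1.82% ± 1.81 in vehicle mice (lowest 0, median 1.53%, highest 5.57%), with an adjusted p of 0.535. The difference, 3.19 points, was 1.83 with a minimum of 5 reads and 1.499 when 10 mice of each group were enough. A Tbx5 stretch at chr5:119835218-119836390 averaged 7.86% ± 3.40 in cadmium mice and 5.06% ± 2.90 in vehicle mice (quasi-binomial model, adjusted p = 0.759). That difference, 2.80 points, was -0.0143 with a minimum of 20 reads and 0.475 with gaps of at most 500 bp. A Lhx1 stretch at chr11:84520186-84520325 averaged 10.7% ± 10.1 in cadmium mice and 6.14% ± 7.55 in vehicle mice (quasi-binomial model, adjusted p = 0.774), and the difference, 4.57 points, was 0.980 when 10 mice of each group were enough. The means were higher in cadmium mice in these 3, and the values of the groups overlapped in each.

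Edges could be tested for 9 stretches, in Gata2, Gata5, Tbx1 and Pax2, and 0 were called (0% of 797 in the genome, quasi-binomial model), with 0 at an unadjusted p under 0.05 against 8 in the genome, and 0 called by limma. The CpGs beside the main stretch of Gata2, the blood stem cell factor, averaged 35.5% ± 13.3 in cadmium mice (lowest 16.9%, median 37.4%, highest 69.1%) and 28.4% ± 16.1 in vehicle mice (lowest 5.83%, median 27.6%, highest 52.6%), and the adjusted p was 0.997. The difference, 7.09 points, was 0.362 with an edge zone of 2000 bp and 0.818 with gaps of at most 2000 bp. Those beside the Tbx1 stretch at chr16:18581458-18582695 averaged 39.9% ± 11.7 in cadmium mice and 42.5% ± 10.5 in vehicle mice, a difference of -2.53 points that was 1.44 points when CpGs read in only 10 mice of each group were let in. The edge that takes in the Tbx1 promoter, beside chr16:18588142-18588921, averaged 15.5% ± 9.62 in cadmium mice and 23.4% ± 15.6 in vehicle mice. That is a difference of -7.97 points (95% interval -17.6 to 1.71), which was -0.315 with an edge zone of 2000 bp and -2.62 when 10 mice of each group were enough. Edge CpGs can belong to a neighbouring stretch: 3 of the 4 here form the stretch at chr16:18588946-18588966. The edges beside that stretch and beside the Gata5 stretch at chr2:180335490-180335536 averaged 6.90% and 2.58% over all mice.

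Widths were also measured in each mouse and compared by limma. None of the 35 genes was called (0% of 16100 in the genome), and 1 had an unadjusted p under 0.05 against 380 in the genome. This comparison cannot show widening at most stretch ends. Only 18 of 216 ends in the mean profile were closed by a measured CpG at or above the threshold. At an open end no measured CpG lay near enough to lengthen a stretch. The width of the mean profile was reached by 28 mice in Tbx15, 25 in Lhx6 and 24 in Pax5, but by 3 in Lhx2. The median over the genes was 1648 bp ± 81.1 in cadmium mice and 1661 bp ± 158 in vehicle mice (SD, n = 15 each). The gene with the smallest p was Nkx2-2, with 2329 bp ± 606 in cadmium mice (lowest 1554, median 2243, highest 3034 bp) and 2728 bp ± 445 in vehicle mice (lowest 1459, median 2899, highest 3034 bp), a difference of -399 bp (limma adjusted p = 0.830). It was -45.9 bp with gaps of at most 500 bp, -78.1 bp with a threshold of 30% and -237 bp with one of 10%. Tbx4 followed with 907 bp ± 208 in cadmium mice and 701 bp ± 364 in vehicle mice, and Sox1 with 2227 bp ± 436 and 1893 bp ± 537. The difference in Tbx4, 206 bp, was 8 bp with gaps of at most 500 bp, and that in Sox1, 334 bp, was 45.6 bp with a threshold of 30%. The widest value of 3034 bp occurred in mice of both groups.

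Window methylation followed the mitochondrial share of coverage in 15 of these genes and treatment in 0. Limma was fitted with log2 of that share and treatment as terms, and a slope is in percentage points per doubling of the share. Of the 35 genes, these 15 passed at an adjusted p under 0.05, against 27.3% of 21453 genes. In 11 methylation was higher with a higher share (background 11.4%), and in 4 it was lower (background 16%). Within cadmium mice alone 0 of the 35 genes passed, against 1395 in the genome, and within vehicle mice alone 8 passed, against 3420. With the replicate number as a block 2 of the 35 genes passed, against 1307 in the genome. The share tended to rise with the replicate number in both groups. It was 0.0128% to 0.0502% in libraries 1 to 3 and 0.0712% to 0.119% in libraries 11 to 13. Not every library kept this order, with 0.0906% in vehicle library 4 and 0.0440% in vehicle library 15. The fit without the block does not separate the share from this order. The slopes of all 15 kept their sign within each group.

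The 11 genes with positive slopes were little methylated, with means of 1.34% to 10.9% and a median of 2.75%. Tbx15, a skeletal factor, averaged 2.65% ± 1.00 in cadmium mice (lowest 1.16%, median 2.45%, highest 4.46%) and 2.91% ± 1.75 in vehicle mice (lowest 0.657%, median 2.24%, highest 6.14%). Its slope was 1.21 ± 0.214 points (SE, limma adjusted p = 0.000101). Pax1 had a slope of 0.931 ± 0.177 and Pax6 of 0.811 ± 0.168. In the 3 libraries with the lowest mitochondrial share, a cadmium library and 2 vehicle libraries, Tbx15 read 1.98%, 0.657% and 1.26%. In the 3 with the highest share, all vehicle libraries, it read 4.50%, 5.08% and 6.14%. The others that rose with the share were Gata2, Tbx1, Nkx2-2, Lhx1, Gata5, Pax9, Foxa1 and Lhx5, with slopes of 0.466 to 1.63 points.

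The 4 genes with negative slopes were more methylated, with means of 8.96% to 23.8%. Lhx6 had a slope of -5.63 ± 1.23 points, Pax5 -1.77 ± 0.546, Gata3 -1.16 ± 0.348 and Pax2 -1.01 ± 0.349. With every CpG given the same weight the slopes were -2.58 in Lhx6, -0.991 in Pax5 and -0.651 in Gata3, and 22 of the 35 genes passed, with 7512 in the genome. In the 3 libraries with the lowest mitochondrial share Lhx6 read 34.4%, 23.1% and 35.8%, and in the 3 with the highest share 14.9%, 15.5% and 19.1%.

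**Figure D4:**
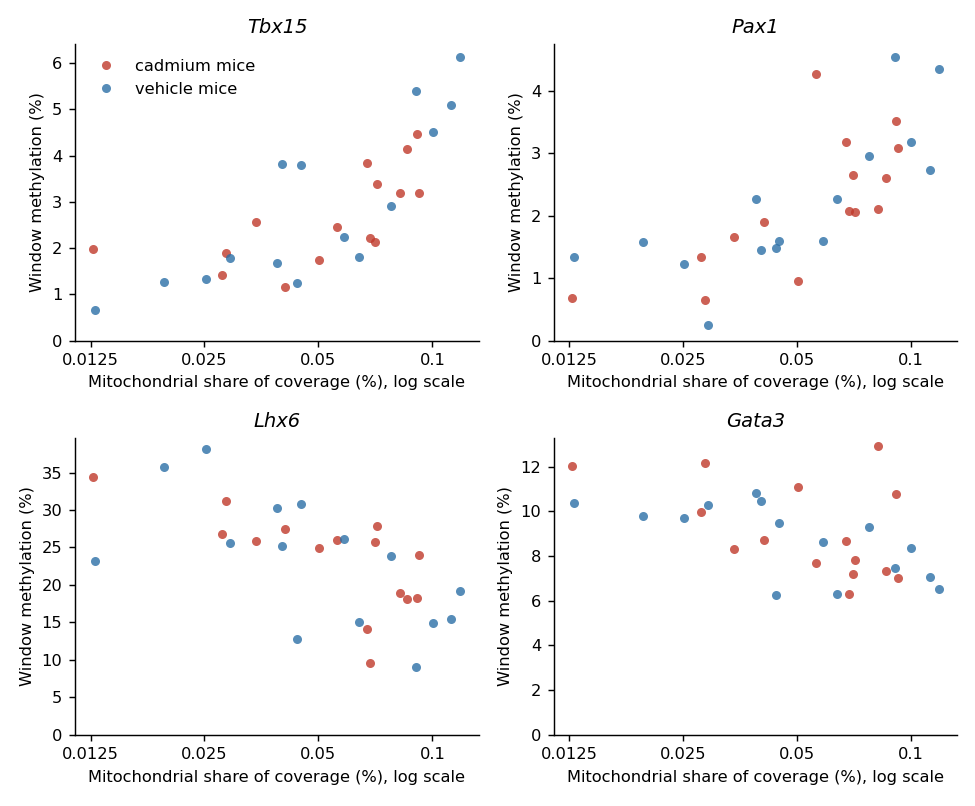
Window methylation (percent of reads, y axes from 0) against the mitochondrial share of coverage (percent, log axis) in 30 mice for Tbx15, Pax1, Lhx6 and Gata3, with cadmium mice in red and vehicle mice in blue. Tbx15 and Pax1 tend to be higher and Lhx6 lower in libraries with a higher share, and vehicle libraries reach a higher share (0.119%) than cadmium libraries (0.0923%).

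**Figure D5:**
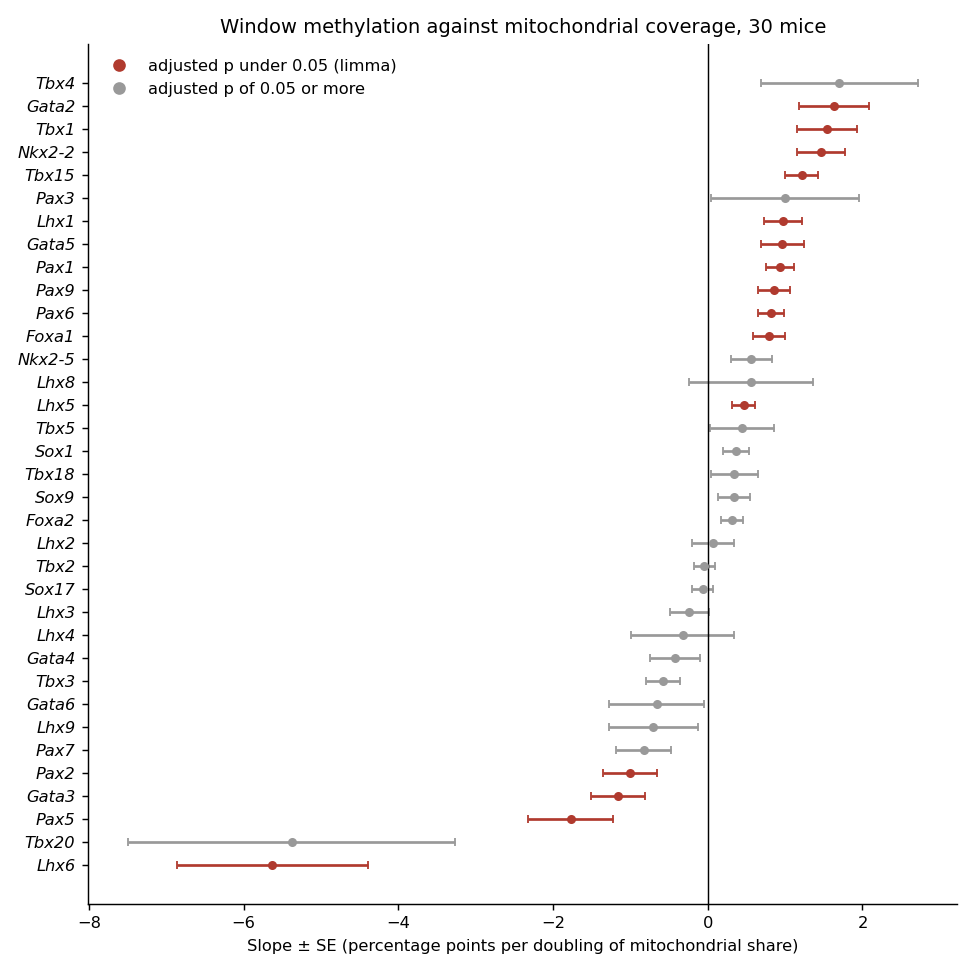
Slope of window methylation (percentage points per doubling of the mitochondrial share, points with SE bars, 30 mice) for the 35 genes, with red for an adjusted p under 0.05 in limma. The 11 red genes right of 0 have slopes of 0.466 to 1.63 and the 4 left of it slopes of -5.63 to -1.01.

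The maternal DMR level, low in sperm and intermediate in body cells, was higher at the high end of the share than at the low end. It was 7.52%, 3.68% and 1.91% in the 3 libraries with the lowest mitochondrial share and 15.7%, 15.1% and 23.9% in the 3 with the highest. Between these ends the order was not kept throughout. Cadmium library 15 (share 0.0819%) read 6.83% and cadmium library 14 (0.0559%) 16.3%. No fit of the maternal level on the share is given. Put in place of the mitochondrial share in the limma fit, the maternal level was followed by 14 of the 35 genes and by 5145 genes of the genome. The genes were not all the same: Gata2, Pax5 and Pax2 followed the share but did not pass here (limma adjusted p = 0.0563, 0.179 and 0.455). Cells other than sperm were not counted, and their part in these slopes was not tested. Among the comparison sets, 36 of 101 other developmental transcription factors had positive slopes that passed and 6 negative ones, led by Otx2 (2.35 points) and Irx1 (3.96 points). Of 27 housekeeping genes 1 was positive and 3 were negative, and of 15 Polycomb subunits 0 and 1.

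Regions of 3 or more measured CpGs with gaps of at most 100 bp placed these slopes within the genes. Of 277 regions in these windows 45 passed, in 26 genes, against 17.9% of 44897 in the genome, and within cadmium mice alone 4 passed, with 910 in the genome. There were 36 positive slopes (background 9.7%) and 9 negative ones (background 8.25%). Of the 36, 29 lay in regions under 20% methylation and 7 between 20% and 80%, while 8 of the 9 negative ones had 20% or more. Of all measured CpGs in these windows, 91.1% averaged under 20%, so low regions were the common kind. A level near 0 also leaves little room for a negative slope. The largest was in Pax3 at chr1:78132121-78132177, with 36.6% ± 24.1 in cadmium mice (lowest 0, median 35.6%, highest 75.9%) and 34.2% ± 21.1 in vehicle mice (lowest 5.31%, median 28.3%, highest 73.9%) and a slope of 20.9 ± 2.78 points (limma adjusted p = 7.98e-06). Mice of both groups covered nearly the whole range there. A region at chr5:119884419-119884543 in the window of Tbx5 had a slope of 13.7 ± 1.98 points. A region of Lhx6 at chr2:36097615-36097761, 6372 bp after the start, averaged 68.3% ± 14.95 in cadmium mice and 64.7% ± 21.5 in vehicle mice and had a slope of -16.2 ± 2.51 points. The Tbx1 promoter CpGs printed above had a slope of 9.04 points, and a region in the bases before the other measured Pax6 start, chr2:105682292-105682375, one of 2.27 points.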

How the data were processed

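Sperm DNA of 15 cadmium and 15 vehicle mice was measured by RRBS, with a mouse per library. The deposited tables give, per the files' own columns, the read count covering each CpG cytosine on each strand and the methylated fraction of those reads as a deposited fraction. Bismark 0.22.3, methylKit 1.12.0, Trim Galore 0.5.0 and bcl2fastq are listed in the submitters' processing notes, with mm10 and GRCm38 as builds. Their roles are not given in the sources used here. Methylated reads were the rounded product of count and fraction. Strands were summed, and CpGs of autosomes or the X chromosome that had 10 or more reads in all 30 libraries were kept. The read counts do not show which reads are PCR copies, so they may overstate independent molecules.

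Windows, stretches and edges with 3 or more CpGs were tested by a logistic model on summed reads, with a Pearson dispersion of at least 1 and a two-sided F test, adjusted over all features of the genome. Widths and mitochondrial slopes used limma 3.58.1 (R 4.3.3). Regions, promoter values, equal CpG weights and the fit without 2 mice were added after seeing the data. Intervals of differences are at 95%. Edge CpGs lay outside the stretch they were counted for and within 1000 bp of it, whatever their level. Strand and starts came from RefSeq promoter entries, which 26 of the 36 genes had. Gene ends used as markers were windows of 1000 bp either side of a gene end. The models were tested on simulated data.

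Named were the 3 genes or features with the smallest p of each test, the 4 with the widest and the 4 with the narrowest stretch, the 4 highest, the 4 lowest and the 4 most variable windows, and, for each comparison set, 2 genes by width and 1 by p. A gene that this rule takes is not reported here. Those named by p were Osr1 (6.70% ± 2.56 in cadmium mice, 3.56% ± 2.02 in vehicle mice, adjusted p = 0.696), Psmb4 (0.341% in cadmium mice and 0.579% in vehicle mice) and Bmi1 (0.983% in cadmium mice and 0.712% in vehicle mice), both with an adjusted p of 1.00. The genes and lists were chosen with earlier results of these data known. No pair of libraries looked like a repeat: the lowest mean chi-square per CpG among 210 pairs within groups was 8.94. Alternatives were other read minimums, thresholds, gaps, windows and edge zones, an upper coverage limit, no dispersion, limma with covariates or a replicate block, and each group alone.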

Additional observations from a re-analysis of the deposited data

How the results depend on the processing

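No gene, stretch, edge or width of the 35 genes was called under any alternative that kept a dispersion term. Without it, calls were 187942 CpGs (1130 in these genes), 13197 windows (25), 7604 stretches (57) and 539 edges (8). Called CpGs of the genome numbered 2 with a minimum of 20 reads and 0 in limma on percent methylation, with or without a mitochondrial or a total coverage covariate. Called edges numbered 7 with gaps of at most 500 bp and 1 with a zone of 2000 bp. The median widest stretch was 2147 bp with 5 reads, 1434 bp with 20 reads, 1016 bp with gaps of at most 500 bp and 3511 bp with gaps of at most 2000 bp, because more or fewer measured CpGs are joined. Among 160 tests of single differences under alternatives, 2 changed sign: the Tbx5 stretch (-0.0143 points with 20 reads) and the Tbx1 edge (1.44 points where 10 mice per group with 10 reads sufficed). The cause was not tested.

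With the replicate number as a block, limma called 0 CpGs, and the mitochondrial share was followed by 1307 windows (2 of the 35 genes) and 1284 regions (6 in these genes). In deviations from group means, 6 of 15 same-numbered pairs had a correlation above 0.1 (range -0.312 to 0.733). Same-numbered pairs averaged 0.126, while pairs with different numbers averaged -0.00794. For 3 mice the closest match was the mouse sharing its number. Most pairs were thus not closely alike, but their average was the higher one. What the numbers stand for was not tested. Cadmium mice alone gave 1395 windows (0 of these genes) and 910 regions (4), and vehicle mice alone 3420 windows (8 of these genes) and 5495 regions (27 in these genes). Without the 2 mice farthest from the median share 13 genes passed, with 5435 in the genome. No slope changed sign under these settings. Depth limits the reading of single CpGs, where the read number sets the smallest step of a value, and RRBS leaves most CpGs between fragments unread.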
